A study of Homo sapiens with 6 samples.

Results

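The genes examined here are 56 genes of vesicle trafficking between the endoplasmic reticulum (ER) and the Golgi apparatus, taken as a list of symbols that cover the COPI and COPII coats, the p24 family, cargo and retrieval receptors, Golgi matrix and membrane proteins, ARF GTPases and SNARE proteins. The list is one of gene symbols by function, drawn up with earlier results of these data known. All 56 were found among the 60612 genes of each library, and all 56 were among the 12076 genes tested, that is, those whose FPKM (fragments per kilobase of transcript, relative to all mapped fragments of a library) averaged 1 or more across the 6 libraries.

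Cargo leaves the ER in vesicles coated by COPII, in which the GTPase SAR1 recruits the SEC23-SEC24 inner layer and the SEC13-SEC31 outer cage, with SEC24 binding the cargo. Material that must go back, such as escaped ER proteins and the receptors that caught them, returns in vesicles coated by COPI (coatomer), which ARF GTPases recruit to Golgi membranes after activation by GBF1. Golgins and GRASP proteins tether vesicles and hold the Golgi stack together, and SNARE proteins drive fusion. Secretory and carcinoma cells depend on this loop for surface receptors and secreted proteins.

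RNA sequencing was performed on HCT116, an established human colorectal carcinoma line, to ask what overexpression of the small nucleolar RNA SNORA28 changes. The control libraries (LV-NC, n = 3) came from cells infected with a negative control lentivirus, and the others (LV-SNORA28, n = 3) from cells infected with a lentivirus carrying SNORA28. Per the methods of the study the vector was GV235, and puromycin was used to select cells with stable overexpression of SNORA28. Its section on sequencing names the infection and how long it lasted before the samples were collected. Whether the sequenced cells of either group were selected is not stated there. All 6 libraries therefore share the parent line and a lentiviral infection, and the sources used here do not say whether the 3 libraries of a group came from separate cultures, so the p-values measure the spread between these libraries, which may be technical.

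The labels were checked first. SNORA28 had 0.92, 0 and 0.64 FPKM in the controls against 15.01, 13.66 and 15.2 in LV-SNORA28 (adjusted p 0.00228 in limma). It lies within the gene EIF5, and reads of the 2 were not separated. EIF5 had 16.88, 8.56 and 9.48 FPKM in the controls against 13.8, 17.86 and 14.59 in LV-SNORA28. These groups overlapped (adjusted p 0.300 in limma). The 6 epithelial markers (EPCAM, CDH1, KRT8, KRT18, KRT19 and CDX2) summed to 762 to 850 FPKM in LV-NC and 784 to 830 FPKM in LV-SNORA28. The 6 markers of other cell types (PTPRC, CD3E, PECAM1, COL1A2, LYZ and HBB) summed to 0.08 to 0.16 and 0.04 to 0.18 FPKM, with COL1A2 at 0 in all 6 libraries. The read depth is unknown because only FPKM was given. Between 11664 and 12259 genes per library had at least 1 FPKM. Genes of mitochondrial DNA made up 44.4% ± 2.83 (SD, n = 3) of all FPKM in the controls against 37.3% ± 1.25 (SD, n = 3) in LV-SNORA28. The part of this difference in the values below was not tested beyond a scaling to the sum of the other genes.

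Few trafficking genes were called, and the calls went in both directions. By limma with Benjamini-Hochberg adjustment over all genes tested, 5 of the 56 (8.93%) had an adjusted p below 0.05, against 8.91% of all 12076 genes. The Golgi membrane protein GOLM1, the cycling receptor ERGIC2 and the coatomer subunit COPG2 rose in LV-SNORA28, while the cargo adaptor SEC24D and the p24 protein TMED9 fell. Over all genes tested, 6.81% were called higher and 2.10% lower. At an unadjusted p below 0.05 there were 16 trafficking genes (28.6%), 9 higher and 7 lower, against 28.0% of all genes. These shares are close to those of all genes, so the number of calls is no property of the trafficking list.

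With 1 library left out, calls became fewer among all genes and among the trafficking genes alike. The count of 5 was 4 (7.14%) without LV-NC 1 or without LV-SNORA28 1, against 5.20% and 3.69% of all genes. It was 3 (5.36%) without LV-NC 2, against 4.04%. It was 2 (3.57%) without LV-NC 3 or without LV-SNORA28 2, against 3.70% and 2.31%, and 1 (1.79%) without LV-SNORA28 3, against 2.40%. GOLM1 was called in each of these fits and TMED9 in those that kept LV-SNORA28 2 and LV-SNORA28 3. Quantile normalization of the log2 values also gave 5 calls (8.93%, against 6.84% of all genes), but with 1 higher and 4 lower (SEC24D, TMED9, KDELR2, ARF1), as ERGIC2 and COPG2 left the list and KDELR2 and ARF1 joined it. Over all genes it turned the split of 822 higher and 254 lower into 451 and 375. With scaling to the FPKM sum of genes outside mitochondrial DNA the split was 615 and 264, with 2 trafficking genes higher and 3 lower.

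**Figure D1:**
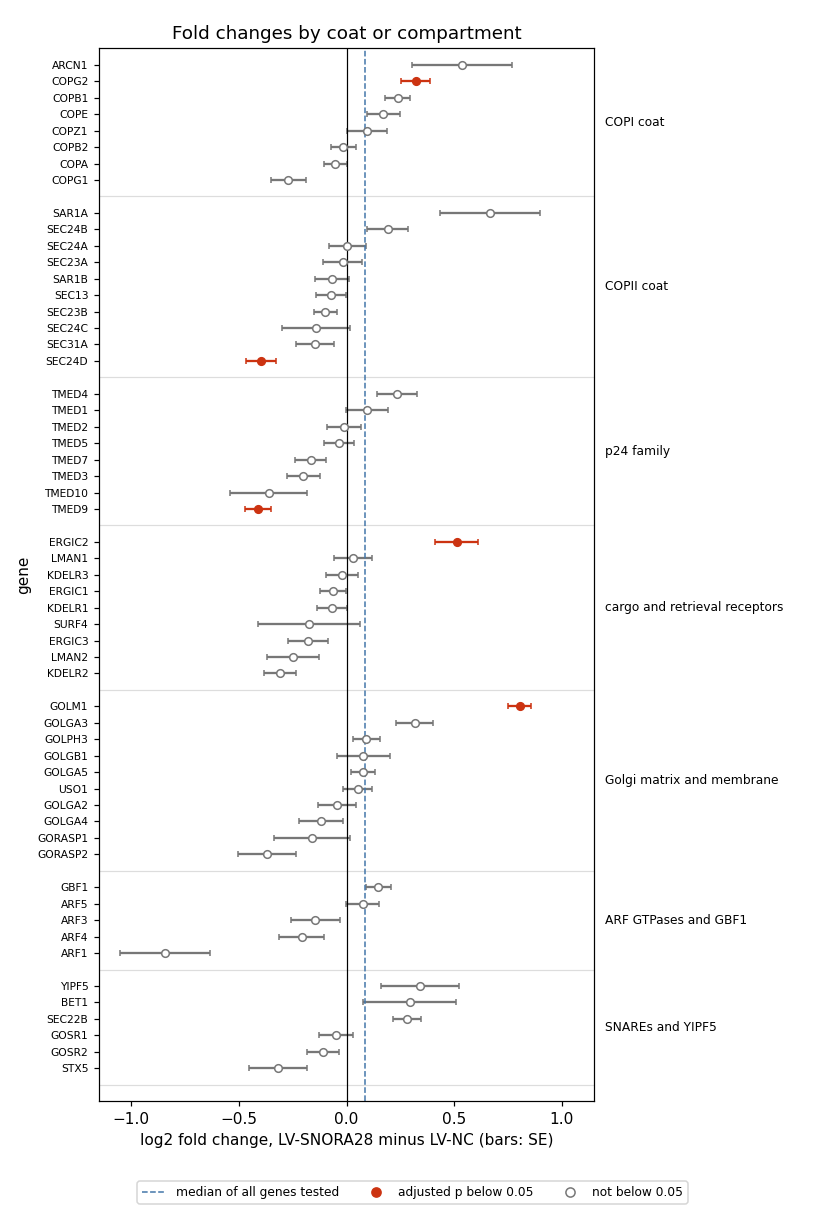
Log2 fold change of each of the 56 genes (LV-SNORA28 minus LV-NC, on the log2(FPKM + 1) scale, x axis) with its standard error as a bar, grouped by coat or compartment (y axis). Filled points have an adjusted p below 0.05 and the dashed line marks the median of all genes tested, 0.09. Most points lie to the left of that line, and the 5 filled points fall in 5 different groups.

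The list as a whole lay a little below the other genes. The log2 fold change on the log2(FPKM + 1) scale was above 0 in 23 of the 56 and below 0 in 33, whereas over all genes tested it was above 0 in 8059 and below 0 in 4017. The median was -0.04 for the trafficking genes and 0.09 for all genes, and 39 of the 56 lay under the latter. The difference between these medians, -0.12, was -0.0585 when all 32761 genes were fitted without a filter on low values. Library by library, the median deviation of the trafficking genes minus that of all genes was 0.0330, 0.0796 and 0.0368 in LV-NC and -0.0757, -0.0652 and -0.0366 in LV-SNORA28. The 3 control libraries thus lay above 0 and the 3 LV-SNORA28 libraries below it. The trafficking genes are more abundant than most, with a median level of 17.4 FPKM against 5.26 FPKM over all genes tested, and the part of this in the shift was not tested. Because the libraries are bulk RNA, fewer cells making a message and less message per cell cannot be told apart.

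The order of the group means of the total depended on what it was divided by. The summed level of the 56 genes was 1333 ± 27.0 FPKM (SD, n = 3) in the controls against 1263 ± 10.03 FPKM (SD, n = 3) in LV-SNORA28. As a share of the FPKM of all genes outside mitochondrial DNA it was 0.688% ± 0.0116 (SD, n = 3) for LV-NC against 0.640% ± 0.00664 (SD, n = 3) for LV-SNORA28. The libraries of the groups did not overlap in the sums or in these shares. As a share of all FPKM, mitochondrial genes included, it was 0.382% ± 0.0247 (SD, n = 3) for LV-NC against 0.401% ± 0.00761 (SD, n = 3) in LV-SNORA28. The means were thus in the opposite order, but the libraries overlapped, at 0.391%, 0.354% and 0.402% in LV-NC and 0.399%, 0.395% and 0.409% in LV-SNORA28.

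The FPKM of the groups did not overlap in 20 of the 56 genes (35.7%), against 35.1% of all genes tested. In 9 of them the LV-SNORA28 libraries were higher, namely COPB1, COPG2, ERGIC2, GOLM1, GOLGA3, GOLGA5, GBF1, SEC22B and YIPF5. In 11 they were lower, namely COPG1, SEC23B, SEC24D, TMED3, TMED7, TMED9, KDELR2, GORASP2, ARF1, ARF4 and GOSR2. Over all genes tested, 27.0% were separated with LV-SNORA28 higher and 8.16% with LV-SNORA28 lower. The study screened genes by an unadjusted p below 0.05 and a fold change above 1.5. In this fit the screen kept 3 of the 56 (5.36%), against 3.79% of all genes. Of these, GOLM1 and SAR1A were higher and ARF1 was lower, where 2.58% of all genes were kept as higher and 1.22% as lower. The fold change was taken here on the log2(FPKM + 1) scale, which understates changes of low genes. ERGIC2, at 1.54 times the control mean in plain FPKM, was not kept, but was kept with a pseudocount of 0.1.

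**Figure D2:**
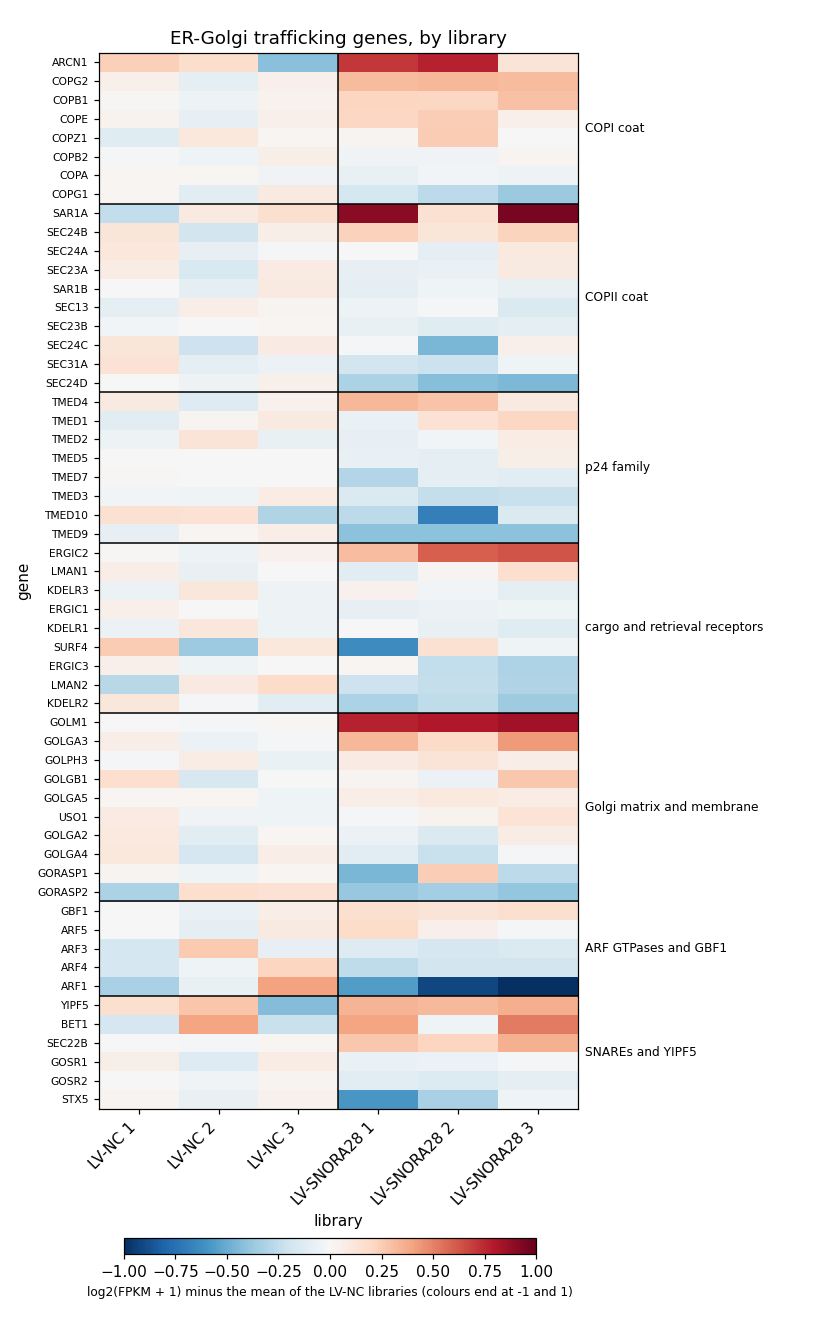
Each row is 1 of the 56 genes and each column 1 library (x axis); colour gives log2(FPKM + 1) minus the mean of the 3 LV-NC libraries, with the scale ending at -1 and 1. GOLM1 is red and TMED9 blue in all 3 LV-SNORA28 columns, whereas SAR1A is dark red in LV-SNORA28 1 and 3 only.

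Some of the genes share a feature of the promoter that the list did not use. The unfolded protein response raises secretory pathway genes through short promoter elements, of which the UPR element TGACGTGG is bound by factors of the XBP1 and ATF6 type. RefSeq promoter windows (GRCh38.p14, 250 bases before the annotated start and 50 from it on) were matched for 48 of the 56 genes. TGACGTGG was found on either strand in 10 of the 48 (20.8%), against 109 of 8814 tested genes with a window (1.24%) and 3 of 66 other transport genes (4.55%). The 10 genes were ARF1, COPA, COPB1, COPB2, GBF1, GOLGA5, KDELR3, SEC23A, SEC24A and STX5. The reverse of this element holds the letters CCACG, and its first letters are shared with the cyclic AMP element TGACGTCA, which was found in GOLPH3 alone of the listed genes. Some genes have several windows, and CCACG alone was in 50 of the 61 windows of the listed genes (82.0%), against 38.1% of all 35116 windows, and CCAAT in 31.1% against 34.6%. The 35116 windows include genes not tested here, unlike the background given for TGACGTGG above, which was in 0.729% of all windows. The longer ER stress elements ERSE and ERSE-II, which join CCAAT or its reverse to CCACG over a fixed gap, were in 0 of the 61 windows, and in 27 and 19 of the 35116.

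The element is shown in its place for 6 of the 10 genes, picked to cover different roles, with 5 flanking bases on each side, 5′ to 3′ on the strand that reads TGACGTGG, with the element in capitals. The letters in capitals are those searched for and so are the same in each, and the flanks were not compared. The sites come from ARF1 (chr1:228082687-228082704, plus strand), STX5 (chr11:62832055-62832072, minus strand), SEC23A (chr14:39103227-39103244, minus strand), COPA (chr1:160343233-160343250, minus strand), COPB1 (chr11:14499847-14499864, plus strand) and KDELR3 (chr22:38468045-38468062, minus strand), and cover the small GTPase, a SNARE, both coats and a retrieval receptor.
ARF1: ggcgcTGACGTGGccgcc
STX5: gtaggTGACGTGGccgct
SEC23A: cctctTGACGTGGcagag
COPA: gtcgcTGACGTGGaggcg
COPB1: ttggcTGACGTGGaaggg
KDELR3: ggcggTGACGTGGccagg
Counted from the start base as 0, the element covered positions -16 to -9 in both ARF1 and STX5, -4 to 3 in SEC23A, 5 to 12 in COPA, -48 to -41 in COPB1 and -46 to -39 in KDELR3. Of the 5 called genes only GOLM1, ERGIC2 and COPG2 had a window, and none of these held the element. The median log2 fold change was -0.02 in the 10 genes with the element and -0.04 in the others with a window.

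The COPI coat had 8 genes, of which 1 passed the test. COPG2 (ENSG00000158623; GRCh38 chromosome 7, 130506238 to 130668748), 1 of the alternative gamma subunits of coatomer, had 7.82, 6.92 and 7.78 FPKM in the controls against 9.58, 9.71 and 9.56 in LV-SNORA28. Each LV-SNORA28 library was above each control library, with a log2 fold change of 0.32 (SE 0.07, adjusted p 0.0376 in limma). COPG2 was the least stable of the calls. Its adjusted p was 0.0734 after quantile normalization, 0.0806 without the filter on low genes and 0.0600 with scaling to the sum outside mitochondrial DNA. With the replicate number as a block it was 0.0772. When 1 library was left out it ran from 0.0589 without LV-NC 1 to 0.124 without LV-SNORA28 2, so that no fit without a library kept the call. COPG2 also overlaps MEST on the opposite strand, which had a mean of 9.89 FPKM in LV-NC and 8.16 FPKM in LV-SNORA28, and whether the counting used strand is not given in the sources used here.

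Its partner COPG1 (ENSG00000181789; chromosome 3, 129249606 to 129277773), the other gamma subunit and the coatomer gene with the highest level, had 54.46, 49.4 and 57.13 FPKM in the controls against 47.37, 44.51 and 41.1 in LV-SNORA28. The groups were separated with LV-SNORA28 lower, but the log2 fold change of -0.27 (SE 0.08) had an adjusted p of 0.0896 in limma. Over the COPI coat the median log2 fold change was 0.13, from -0.27 in COPG1 to 0.54 in ARCN1, the delta subunit. ARCN1, singled out after its values were seen, had 36.23, 34.61 and 22.55 FPKM in the controls against 50.47, 52.6 and 33.52 in LV-SNORA28. The third library of each group was the lowest, the groups overlapped, and the adjusted p was 0.193. The alpha and beta prime subunits COPA and COPB2 had log2 fold changes of -0.05 and -0.02. The summed level of the 8 genes was 247 ± 3.32 FPKM (SD, n = 3) in the controls against 264 ± 17.0 FPKM (SD, n = 3) in LV-SNORA28, with overlapping groups.

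**Figure D3:**
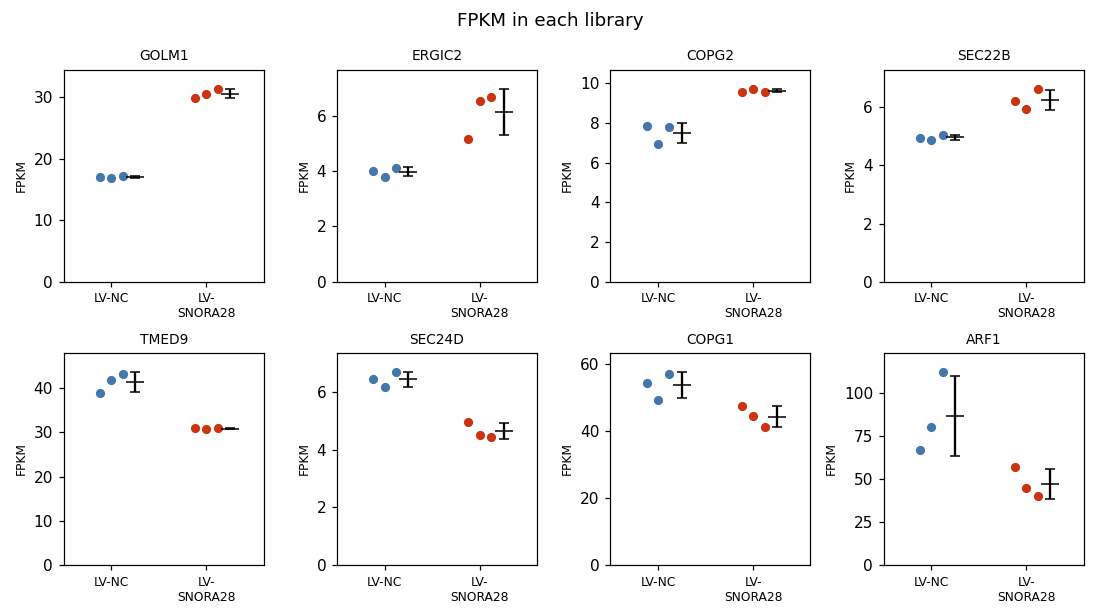
FPKM (y axis, from 0) of 8 genes in each LV-NC library (blue) and each LV-SNORA28 library (red), with the mean and SD (n = 3) in black. The upper row shows genes with a higher mean in LV-SNORA28 and the lower row genes with a lower mean, and the groups do not overlap in any panel. The adjusted p was not below 0.05 for SEC22B, COPG1 and ARF1.

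Of the 10 COPII genes, SEC24D was the call. SEC24D (ENSG00000150961; chromosome 4, 118722823 to 118838683) is a form of the SEC24 subunit that selects cargo. It stood at 6.46, 6.19 and 6.69 FPKM in the controls against 4.97, 4.53 and 4.46 in LV-SNORA28, so that the 3 LV-SNORA28 libraries were the lowest. It fell by 0.40 on the log2 scale (SE 0.07, adjusted p 0.0233 in limma). The call was lost without LV-NC 1 (0.0552), LV-NC 3 (0.0723), LV-SNORA28 2 (0.0899) or LV-SNORA28 3 (0.0876), or without the filter on low genes (0.0545), and held under quantile normalization (0.0141). Of the other forms, SEC24A, SEC24B and SEC24C had log2 fold changes of 0.00359, 0.19 and -0.14, none of them past the test, and the ratio of SEC24C to SEC24D overlapped between the groups.

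The most abundant COPII gene was SEC23B, a subunit of the inner layer, at 30.11, 30.79 and 31.14 FPKM in the controls against 29.12, 28.09 and 28.61 in LV-SNORA28. The libraries did not overlap, although the difference was small, with a log2 fold change of -0.10 (SE 0.05, adjusted p 0.273). SAR1A, 1 of the GTPases that start the COPII coat, was singled out after its values were seen, because the screen of the study kept it. It had 4.11, 5.47 and 5.78 FPKM in the controls against 10.36, 5.74 and 10.76 in LV-SNORA28. LV-SNORA28 2 lay among the controls, and the log2 fold change of 0.67 (SE 0.23) had an adjusted p of 0.122 in limma, or 0.0398 without that library. The latter fit was singled out because LV-SNORA28 2 lay with the controls, so its lower value is no support for a change. SAR1A passed in 1 of 13 alternatives, with an adjusted p of up to 0.295. SAR1B, its close relative, had a log2 fold change of -0.07. Over the coat the median was -0.07, and 7 of the 10 genes lay below 0.

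The p24 proteins (TMED) cycle between ER and Golgi and help to load cargo such as proteins with a lipid anchor. Of the 8 p24 genes, 6 had a log2 fold change below 0, with a median of -0.10, and TMED9 passed the test. TMED9 (ENSG00000184840; chromosome 5, 177592203 to 177597242) had 38.98, 41.94 and 43.31 FPKM in the controls against 30.9, 30.83 and 30.92 in LV-SNORA28. The LV-SNORA28 libraries had a coefficient of variation of 0.153% and lay under every control. TMED9 fell by 0.41 on the log2 scale (SE 0.06, adjusted p 0.0138 in limma). The adjusted p was 0.0616 without LV-SNORA28 2 and 0.0587 without LV-SNORA28 3, and below 0.05 in the other 11 alternatives.

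TMED10, the p24 gene with the highest level, had 63.11, 62.86 and 45.93 FPKM in the controls against 47.22, 35.0 and 51.14 in LV-SNORA28. LV-NC 3 lay among the LV-SNORA28 values, and the log2 fold change of -0.36 (SE 0.18) had an adjusted p of 0.245. TMED4 and TMED1 were the p24 genes above 0, at 0.24 and 0.10, and neither passed. The summed level of the family was 199 ± 9.80 FPKM (SD, n = 3) in the controls against 175 ± 8.82 FPKM (SD, n = 3) in LV-SNORA28, and these sums did not overlap. The sums include TMED9, with means of 41.4 FPKM in LV-NC and 30.9 in LV-SNORA28, and TMED10, with 57.3 and 44.5. TMED2, also abundant, had means of 42.6 FPKM in LV-NC and 42.3 in LV-SNORA28. Whether the sums are separated without TMED9 was not tested.

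Among the 9 cargo and retrieval receptors, ERGIC2 rose. ERGIC2 (ENSG00000087502; chromosome 12, 29337352 to 29381189) cycles through the compartment between ER and Golgi, and was the lowest of the 9 in level. It stood at 4.01, 3.79 and 4.12 FPKM in the controls against 5.16, 6.53 and 6.68 in LV-SNORA28, with LV-SNORA28 1 closest to the controls. The log2 fold change was 0.51 (SE 0.10, adjusted p 0.0315 in limma). It kept the call when LV-SNORA28 1 was left out (0.0283), but not without LV-NC 1 (0.0700), LV-NC 2 (0.0865), LV-NC 3 (0.0765), LV-SNORA28 2 (0.110) or LV-SNORA28 3 (0.106). Nor was ERGIC2 called under quantile normalization (0.0538), without the filter on low genes (0.0850) or with the replicate number as a block (0.0655). ERGIC2 overlaps FAR2 on the opposite strand, which stood at 1.12 to 1.77 FPKM. Its relatives ERGIC1 and ERGIC3 had log2 fold changes of -0.06 and -0.18 and did not pass.

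The KDEL receptors return escaped ER chaperones. KDELR1, the most abundant of the 56 genes, had 96.2, 108.73 and 97.02 FPKM in the controls against 100, 95.37 and 92.26 in LV-SNORA28. The groups overlapped, with a log2 fold change of -0.07 (SE 0.07, adjusted p 0.573). KDELR2, singled out after its values were seen, had 37.23, 33.93 and 31.88 FPKM in the controls against 27.33, 28.55 and 26.62 in LV-SNORA28. Every LV-SNORA28 library was lower, yet the log2 fold change of -0.31 (SE 0.07) had an adjusted p of 0.0502. With quantile normalization it was 0.0395 and with scaling to the sum outside mitochondrial DNA 0.0494. KDELR2 passed in 3 of 13 alternatives, none of them a fit without a library, and its adjusted p in limma reached 0.156. KDELR2 overlaps DAGLB on the same strand, which stood at 3.1 to 5.2 FPKM. The summed level of the 9 receptors was 323 ± 3.15 FPKM (SD, n = 3) in the controls against 294 ± 9.15 FPKM (SD, n = 3) in LV-SNORA28, without overlap, and 7 of the 9 had a log2 fold change below 0.

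The change that held under every alternative was that of GOLM1 in the Golgi matrix and membrane group. GOLM1 (ENSG00000135052; chromosome 9, 86026146 to 86100173) encodes a membrane protein of the Golgi, also known as GP73, that rises in the serum in liver disease. It stood at 17.03, 16.95 and 17.28 FPKM in the controls against 29.89, 30.51 and 31.37 in LV-SNORA28. The controls differed little and every LV-SNORA28 library was far above them, at 1.79 times the control mean. The log2 fold change was 0.80 (SE 0.05, adjusted p 0.00207 in limma). It ranged from 0.72 to 0.84 over 13 alternatives, in each of which the adjusted p was below 0.05, the highest being 0.0321.

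None of the other 9 Golgi matrix and membrane genes passed. GOLPH3, which holds Golgi enzymes in place and has the highest mean of the group, had 26.49, 28.27 and 25.51 FPKM in the controls against 28.32, 29.34 and 28.07 in LV-SNORA28. The libraries overlapped, with a log2 fold change of 0.09 (SE 0.06, adjusted p 0.373), which was -0.00121 under quantile normalization. The golgins GOLGA2, GOLGA4 and GOLGB1 had values of -0.04, -0.12 and 0.08, and the tether USO1 had 0.05. GORASP2, a GRASP stacking protein singled out after its values were seen, had 18.56, 26.43 and 25.91 FPKM in the controls against 17.73, 18.29 and 17.58 in LV-SNORA28. LV-NC 1 lay close to the LV-SNORA28 libraries, and the adjusted p in limma went from 0.134 to 0.0188 when it was left out. This fit was singled out because LV-NC 1 lay near the other group, so its lower value is no support for a change. GORASP2 passed in 1 of 13 alternatives, with an adjusted p of up to 0.289. The group summed to 136 ± 1.18 FPKM (SD, n = 3) in the controls against 148 ± 3.90 FPKM (SD, n = 3) in LV-SNORA28. Without GOLM1 the other 9 genes summed to 119 ± 1.198 FPKM (SD, n = 3) in the controls against 117 ± 3.16 FPKM (SD, n = 3) in LV-SNORA28, with overlapping groups.

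None of the 5 genes of the ARF GTPases and their exchange factor GBF1 passed the adjusted test in limma, and 2 of them, ARF1 and GBF1, had an unadjusted p below 0.05. ARF1 (ENSG00000143761; chromosome 1, 228082708 to 228099212), which recruits coatomer, had the lowest log2 fold change of the 56. It stood at 67.18, 80.27 and 112.15 FPKM in the controls against 57.03, 44.54 and 39.98 in LV-SNORA28. These groups were separated but wide, with LV-NC 3 far above the other controls. The log2 fold change of -0.84 (SE 0.21) had an adjusted p of 0.0557, which was 0.0426 when only genes averaging 5 FPKM or more were fitted and 0.0493 under quantile normalization, and 0.161 without LV-SNORA28 3. Without LV-NC 3 the log2 fold change was -0.64. ARF5, the most abundant gene of this group, had 72.04, 67.51 and 76.63 FPKM in the controls against 82.09, 74.45 and 71.45 in LV-SNORA28, which overlap, and a log2 fold change of 0.08 (SE 0.08, adjusted p 0.574) that was -0.0164 under quantile normalization. ARF3 and ARF4 had -0.14 and -0.21, and GBF1 had 0.15.

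None of the 5 SNARE genes or YIPF5, a Golgi membrane protein, passed in limma, and SEC22B alone had an unadjusted p below 0.05. SEC22B (ENSG00000265808; chromosome 1, 120150898 to 120176520), a SNARE of vesicles between ER and Golgi, had 4.95, 4.88 and 5.04 FPKM in the controls against 6.19, 5.92 and 6.62 in LV-SNORA28. The LV-SNORA28 libraries were all higher, with a log2 fold change of 0.28 (SE 0.07) and an adjusted p of 0.0503. With a pseudocount of 0.1 the adjusted p was 0.0480, and after quantile normalization 0.139. The gene has near copies, and the pseudogene SEC22B2P was listed at 0.39 to 1.19 FPKM, so reads may be split between them. STX5, the syntaxin of the Golgi and the most abundant of this group, had 17.87, 16.6 and 18.04 FPKM in the controls against 11.35, 13.74 and 16.98 in LV-SNORA28. LV-SNORA28 3 reached the control range, and the log2 fold change of -0.32 (SE 0.14) had an adjusted p of 0.186.

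The spread between libraries of a group differed widely among the genes. In LV-NC the coefficient of variation was highest in BET1 (40.9%), YIPF5 (28.0%), ARF1 (26.7%), ARCN1 (24.01%) and SURF4 (21.5%). In LV-SNORA28 it was highest in GORASP1 (34.2%), SAR1A (31.2%), BET1 (28.5%), SURF4 (26.7%) and ARCN1 (23.0%). BET1, SURF4 and ARCN1 thus varied in both groups. GOLM1 had 1.01% in LV-NC and 2.43% in LV-SNORA28.

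**Figure D4:**
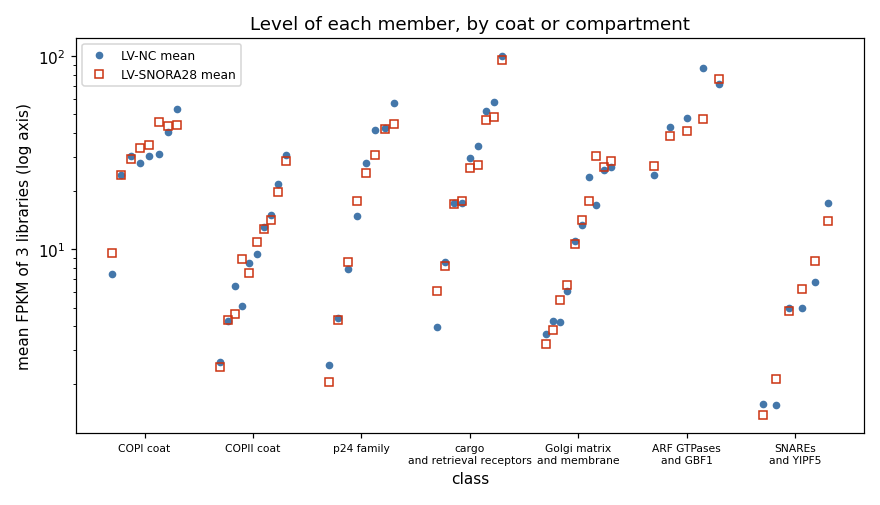
Mean FPKM of each of the 56 genes (y axis, log scale) in LV-NC (filled circles) and LV-SNORA28 (open squares), grouped by coat or compartment and ordered by level within each group (x axis). Means run from under 2 FPKM among the SNARE genes to about 100 FPKM for KDELR1, and the gap between circle and square is widest for ARF1, GOLM1 and SAR1A.

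FPKM is scaled to transcript length, so levels may be set side by side between genes. By the mean over 6 libraries the genes ran from 1.49 FPKM in GOSR2 to 98.3 FPKM in KDELR1. The ARF group was the highest by its median level, 44.7 FPKM, followed by the COPI coat with 31.7, the cargo and retrieval receptors with 28.2 and the p24 family with 21.4 FPKM. The Golgi matrix and membrane group had a median of 12.3, the COPII coat 9.11 and the SNARE genes with YIPF5 5.25 FPKM. Within each group the genes spread over a wide range, for example from 2.54 FPKM in SAR1B to 29.6 FPKM in SEC23B, so these medians do not separate the groups.

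Several of these proteins exist as paralogue pairs, and the balance within 7 such pairs was compared between the groups. A plain FPKM ratio is independent of any scaling that multiplies a whole library, whereas the tests were made on log2((FPKM + 1)/(FPKM + 1)), which is not. COPG1 was 7.15 ± 0.190 times (SD, n = 3) the level of COPG2 in LV-NC and 4.61 ± 0.324 times (SD, n = 3) in LV-SNORA28, as FPKM ratios. The ratios were 6.96, 7.14 and 7.34 in LV-NC and 4.94, 4.58 and 4.30 in LV-SNORA28, so the gap between the groups exceeded the spread within them. On the log2 scale of the tests the difference was -0.59. In a two-sided exact permutation test p was 0.1, the lowest possible for 3 against 3 libraries, and 0.175 after Benjamini-Hochberg adjustment over the 7 pairs.

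On the same scale the log2 ratios of SEC24A to SEC24B, SAR1A to SAR1B and KDELR1 to KDELR2 were also separated between the groups, each with the same exact p of 0.1 (adjusted 0.175). Their differences were -0.19, 0.74 and 0.24 on the log2 scale. For SAR1A to SAR1B the plain FPKM ratio was 1.57, 2.2887 and 2.03 in LV-NC and 4.32, 2.28685 and 4.41 in LV-SNORA28. LV-SNORA28 2 thus lay below LV-NC 2 and the plain ratios overlapped, so the separation of this pair rests on the added pseudocount. The pairs SEC23A to SEC23B, SEC24C to SEC24D and GORASP1 to GORASP2 overlapped, with differences of 0.08, 0.26 and 0.21 and exact p-values of 0.6, 0.3 and 0.5. No pair can reach an exact p below 0.05 with this number of libraries.

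**Figure D5:**
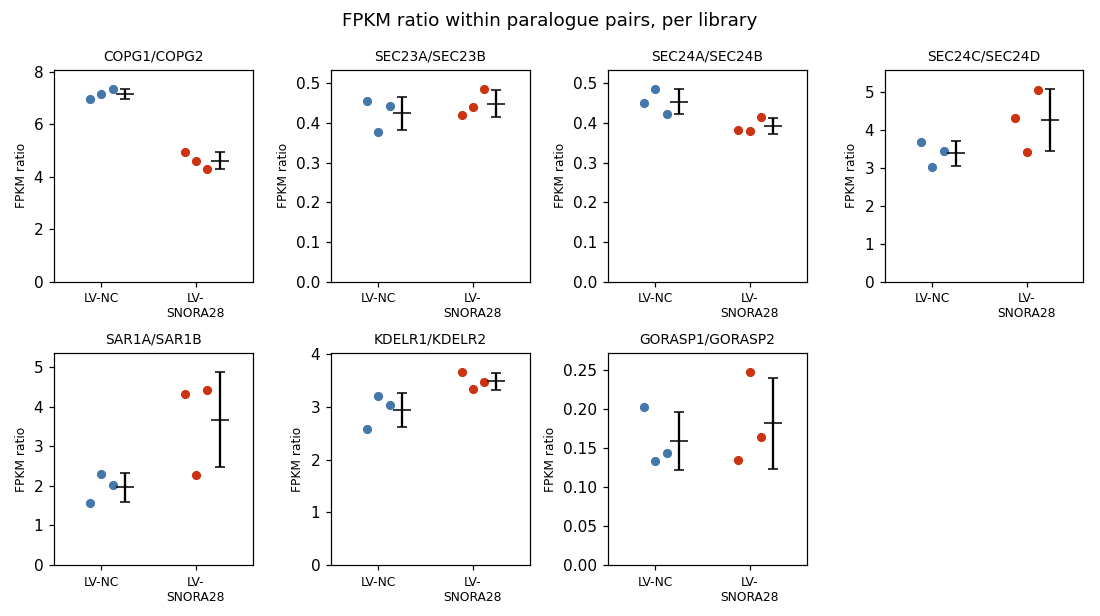
FPKM ratio of the first to the second gene of each paralogue pair (y axis, from 0) in each LV-NC library (blue) and LV-SNORA28 library (red), with the mean and SD (n = 3) in black. COPG1/COPG2 shows the clearest gap, from about 7 to under 5, while SEC23A/SEC23B, SEC24C/SEC24D and GORASP1/GORASP2 overlap.

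The wider transport machinery was read from a list of 82 further genes, of which 76 were tested: exit-site factors, the TRAPP and COG tethers, ARF regulators, other SNAREs and fusion factors, and other Golgi proteins. Of the 76, 8 were called (10.5%, against 8.91% of all genes), 7 higher and 1 lower, and 14 had an unadjusted p below 0.05 (18.4%, against 28.0%). The median log2 fold change was 0.08, close to the 0.09 of all genes. The count of 8 fell to 3 without LV-NC 1, to 1 without LV-NC 2 or LV-SNORA28 2, and to 0 in limma without LV-NC 3, LV-SNORA28 1 or LV-SNORA28 3, where 14, 14 and 12 genes still had an unadjusted p below 0.05. The share of all genes at that unadjusted p was not taken in these fits. Over all genes the 1076 calls became 628, 488 and 447 without LV-NC 1, 2 and 3. They became 446, 279 and 290 without LV-SNORA28 1, 2 and 3, so calls were lost over all genes in the same fits.

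Of these, ARFGAP3, which switches off ARF1 on Golgi membranes, had 5.96, 5.84 and 5.38 FPKM in the controls against 8.01, 8.04 and 7.78 in LV-SNORA28. All LV-SNORA28 libraries were higher, and the log2 fold change was 0.41 (SE 0.06, adjusted p 0.0174 in limma). It was called in 9 of 13 alternatives, and not without LV-NC 3 or any 1 of the LV-SNORA28 libraries, with an adjusted p of at most 0.0754. The tether subunit TRAPPC11, the SNAREs SEC22C and VTI1A, the fusion factor VPS45, and TMED8 and GOLT1A were also higher, with log2 fold changes of 0.38, 0.45, 0.36, 0.30, 0.54 and 0.47 and adjusted p-values of 0.0263, 0.0293, 0.0372, 0.0384, 0.0362 and 0.0440. None of these 6 was called in more than 1 of the 6 fits without a library, and TRAPPC11 alone of them was called under quantile normalization. The 1 gene that fell was MCFD2, the partner with which the receptor LMAN1 exports clotting factors, at 25.44, 24.11 and 27.29 FPKM in the controls against 20.57, 20.67 and 19.87 in LV-SNORA28. It had a log2 fold change of -0.32 (SE 0.06, adjusted p 0.0356), and the call was lost whenever 1 library was left out (up to 0.121). LMAN1 itself had a log2 fold change of 0.03.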

How the data were processed

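Polyadenylated RNA of 6 libraries was sequenced as stranded paired ends. The authors deposited 1 table per library of Ensembl identifiers with FPKM values, which are fragments relative to the length of a transcript and to all those mapped in a library. The submitters' processing notes name cutadapt 1.9, HISAT2 2.2.1, StringTie 2.1.6, DESeq2, edgeR and hg38, without their roles. The annotation release and the use of strand in counting are not given in the sources used here. GENCODE 44 (GRCh38) gave symbols for 60401 of 60612 identifiers.

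Sample titles gave the groups. Genes averaging 1 FPKM or more were fitted as log2(FPKM + 1) with limma 3.58.1 (lmFit, eBayes with trend) in R 4.3.3, two-sided, with Benjamini-Hochberg adjustment over 12076 genes, and tested on simulated data. The log2(FPKM + 1) scale understates changes of low genes. Without read counts, no counting interval was attached and no count model was run. Paralogue ratios were compared by exact two-sided permutation tests. Promoter windows were searched in Python 3.11.15.

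The 56 genes, the 82 further transport genes and the tests were chosen with earlier results of these data known. The motifs were chosen later still. Genes named were those with an adjusted p below 0.05, in each group also the gene of highest mean and that of smallest p, and up to 10 called genes among the 82. Others are marked as singled out after their values were seen, or are given as the relatives, the extremes or the members of a count. Alternatives were a pseudocount of 0.1, no filter, an average of 5 FPKM or more, quantile normalization, scaling to the FPKM sum outside mitochondrial DNA, no trend, the replicate number as a block, and each library left out in turn. Protein sequences were not used here.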

Additional observations from a re-analysis of the deposited data

How the results depend on the processing

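The 1076 calls over all genes became 397 without a filter, 510 with the replicate number as a block, and 279 to 628 with 1 library left out. The 5 trafficking genes called became 2 without a filter (3.57%, against 1.21% of all genes), 9 among those averaging 5 FPKM or more (19.6% of 46, against 14.6% of 6241), 3 with the replicate block (5.36%, against 4.22%), and 1 to 4 with 1 library left out. The 8 of 76 further transport genes called became 1 of 82 without a filter, against 1.21% of all genes. They became 4 of 44 with an average of 5 FPKM or more, against 14.6% of all genes. Of the 76, 3 were called under quantile normalization (against 6.84% of all genes) and 2 with the replicate block (against 4.22%). With scaling to the FPKM sum outside mitochondrial DNA there were 5 (against 7.28%). With 1 library left out there were 0 to 3, against 2.31% to 5.20% of all genes. The median log2 fold change of the trafficking genes minus that of all genes, -0.12, became -0.15 with a pseudocount of 0.1 and -0.0585 without a filter, where 32761 genes were fitted, and ranged from -0.14 to -0.0990 with 1 library left out. Under quantile normalization GOLPH3 was at -0.00121 and ARF5 at -0.0164, and neither passed in any fit. The cause was not tested.

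The labels do not say whether libraries of the same replicate number belong together, and the main fit treated them as unpaired. Deviations from the group means correlated across genes at -0.0441, 0.0914 and 0.00983 for replicates 1, 2 and 3. Such correlations over all genes cannot show that pairing was absent. With the replicate block the genes called were GOLM1, TMED9 and ARCN1 (adjusted p 0.0359). Over the genes named by the rule, 186 values kept direction and side of the threshold under the alternatives. Another 90 fell short of it, 4 came to pass it and 2 changed sign. The 186 include values of genes that the main fit did not call, which could not fall short. Of the 5 called trafficking genes, GOLM1 was called in 13 alternatives, TMED9 in 11, SEC24D in 7, ERGIC2 in 5 and COPG2 in 3. Among the 8 further genes called, ARFGAP3 was called in 9 alternatives and the others in 2 to 5. At the threshold of the study 2 to 4 genes were kept, with GOLM1 and ARF1 in each of the 13 alternatives. The share of all genes kept at that threshold was taken in the main fit alone, so these counts have no background. SAR1A was not kept under quantile normalization (1 higher and 1 lower), nor without LV-NC 1 or LV-SNORA28 3, where ARCN1 was, nor without LV-SNORA28 1, where ERGIC2 was. The differences in log2 ratio of the 7 pairs kept their sign in each alternative run. The unknown depth limits what can be said of genes near 1 FPKM, such as GOSR2, BET1 and TMED3. Groups of 3 are too small for a test of outlying libraries.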
